A study of Mus musculus with 3 samples.

Results

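Collagen processing and crosslinking enzymes were examined as a group of 10 mouse genes, found by name in the gene table among 54532 genes. They were the lysyl oxidases Lox, Loxl1, Loxl2 and Loxl3, the lysyl hydroxylases Plod1 and Plod2, the prolyl 4-hydroxylase subunits P4ha1 and P4ha2, the chaperone Serpinh1 and the enhancer Pcolce, and all 10 were counted in every library. The 10 are called enzymes below for short, although Serpinh1 encodes a chaperone and Pcolce an enhancer. RNA was sequenced from 3 libraries, 1 per condition, all made from cardiac fibroblasts of adult Myh6-mCherry mice 5 days after myocardial infarction (MICFs), in which the Myh6 promoter drives the mCherry reporter. MICFs were cultured for 4 weeks without virus. GMTMS-iCMs, induced cardiomyocytes, were MICFs transduced with Gata4, Mef2c, Tbx5, Myocd and Sall4, kept with doxycycline for 4 weeks and sorted for mCherry. GMTMM-iCMs were to be made in the same way with Mesp1 in place of Sall4. Virus, doxycycline and the mCherry sort came together in both iCM libraries. Their parts in a difference from MICFs cannot be told apart. Each iCM library is a pool of 5 sorted samples, and with 1 library per condition no difference below has a replicate check and no p-value was computed.

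The library totals lay between 10624118 and 11904484 counts, of which the 10 genes took 30291 counts in MICFs against 7693 in GMTMS-iCMs, with 35514 for the library labelled GMTMM. That label is at odds with the delivered factors, because Sall4 had 1060 counts and Mesp1 had 0 there, against 0 counts of Sall4 in MICFs and 1190 in GMTMS-iCMs. Every direction drawn from the library labelled GMTMM carries this limit. The MICF library held markers of several cell types. A list of 8 fibroblast genes took 0.486% of its counts, 8 macrophage genes 1.52% and 8 endothelial genes 0.244%. In bulk RNA, fewer cells of a type and less RNA per cell cannot be told apart.

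Collagen is modified in the endoplasmic reticulum before it leaves the cell. Prolyl 4-hydroxylases hydroxylate prolines, which keeps the triple helix stable at body temperature, lysyl hydroxylases prepare lysines for sugar attachment and crosslinking, and the chaperone encoded by Serpinh1 binds the folded helix. Outside the cell the propeptides are cut off, a step that Pcolce enhances, and lysyl oxidases turn lysines into reactive aldehydes that crosslink the fibrils. In the infarcted heart this machinery is known from activated fibroblasts, which build the scar.

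The 10 genes did not move alike in GMTMS-iCMs. Relative to MICFs, 7 genes were lower and 0 were higher by over 1 on the log2 scale: Lox, Loxl1, Loxl2, Loxl3, Plod2, Serpinh1 and Pcolce. This scale is log2 (FPKM + 1) after quantile normalization over the 3 libraries, and the limit of 1 follows the study's filter. By the same rule 10.7% of the 13919 genes with an FPKM of at least 1 in some library were lower and 12.1% were higher. Among the 5404 genes with an FPKM of at least 10 in some library, 13.0% were lower and 15.1% were higher. P4ha1, Plod1 and P4ha2 did not pass the limit, with differences of -0.23, -0.48 and -0.42. The median difference of the 10 genes was -2.27, against -0.04 over the 13919 genes.

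For the library labelled GMTMM, 0 of the 10 genes were higher and 0 were lower than in MICFs by over 1, where the background was 8.31% higher and 5.09% lower (10.9% and 5.35% of the 5404 genes). The median difference of the 10 genes was 0.18, or between 0.41 and 0.44 without quantile normalization, with TMM or with DESeq2's size factors, and the differences ran from -0.58 for Plod1 to 0.47 for Loxl2. Set directly against that library, GMTMS-iCMs had the same 7 genes lower by over 1 and 0 higher, against a background of 11.1% lower and 9.01% higher (13.2% and 10.4% of the 5404 genes), with a median of -2.40. Beside the 6 of the 10 genes that were lower by over 1 in GMTMS-iCMs and above MICFs by any amount in the library labelled GMTMM, 3.34% of the 13919 genes had this pattern. Both iCM libraries were set against the same MICF library.

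**Figure D1:**
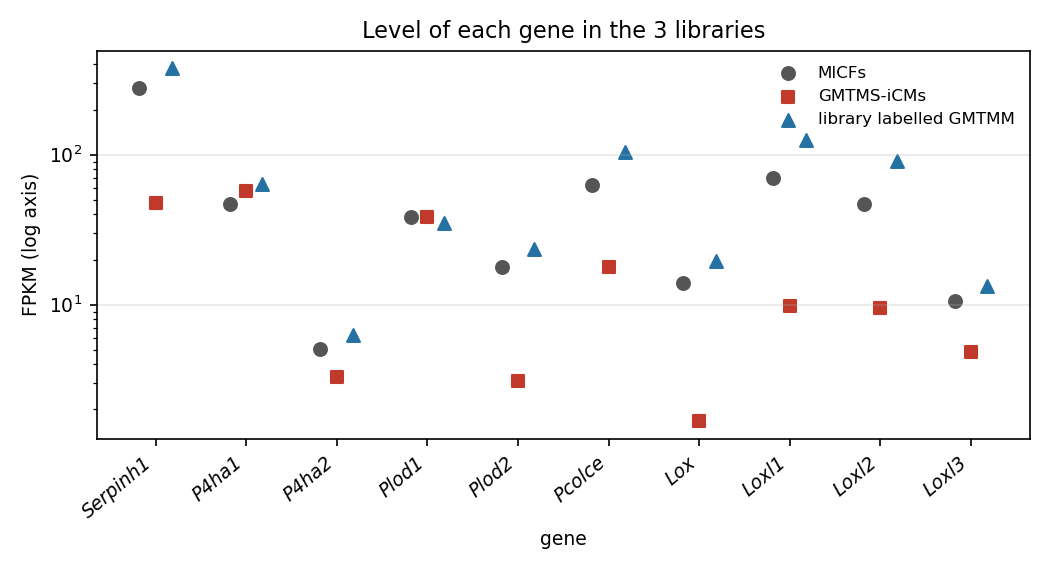
Deposited FPKM of each gene (log axis) in MICFs (grey circles), GMTMS-iCMs (red squares) and the library labelled GMTMM (blue triangles), 1 library each. P4ha1 (46.6 to 63.6 FPKM) and Plod1 (35.2 to 38.3 FPKM) keep the 3 points close together, while Serpinh1, Plod2, Pcolce and the lysyl oxidases have the GMTMS-iCM point lowest.

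Promoter sequences are shown for genes on both sides of this split. P4ha1 and Plod1 did not pass the limit, and Serpinh1 had the largest quantile-normalized difference (-3.22). On the deposited FPKM, Lox (8.32-fold) and Loxl1 (7.17-fold) fell more than Serpinh1 (5.88-fold). Prolyl and lysyl hydroxylases and Lox are textbook targets of the hypoxia-inducible factor HIF-1, so its core letters ACGTG and GCGTG were searched on both strands of the 250 bases before the start. Each sequence is from RefSeq on GRCm38.p6, 5′ to 3′ on the strand of the gene, and capitals mark either core or its reverse complement. The P4ha1 stretch is chr10:59323046-59323295 (+), the Plod1 stretch is chr4:147936777-147937026 (-), and the Serpinh1 stretch is chr7:99353240-99353489 (-).
P4ha1: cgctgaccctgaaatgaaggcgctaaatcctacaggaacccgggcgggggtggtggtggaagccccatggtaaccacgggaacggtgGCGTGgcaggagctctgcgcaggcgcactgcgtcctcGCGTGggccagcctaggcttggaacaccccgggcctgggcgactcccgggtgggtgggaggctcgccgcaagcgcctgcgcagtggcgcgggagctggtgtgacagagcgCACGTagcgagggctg
Plod1: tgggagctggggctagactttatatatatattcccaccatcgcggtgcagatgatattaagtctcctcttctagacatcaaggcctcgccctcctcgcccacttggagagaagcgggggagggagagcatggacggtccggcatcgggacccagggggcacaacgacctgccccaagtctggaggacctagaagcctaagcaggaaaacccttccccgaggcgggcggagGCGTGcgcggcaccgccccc
Serpinh1: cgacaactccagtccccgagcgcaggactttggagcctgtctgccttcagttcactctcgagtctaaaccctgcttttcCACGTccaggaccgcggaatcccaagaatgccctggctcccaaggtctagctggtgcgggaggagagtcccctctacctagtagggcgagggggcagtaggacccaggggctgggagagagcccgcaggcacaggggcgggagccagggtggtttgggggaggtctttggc
P4ha1 held 3 cores, starting 163, 126 and 16 bases before the start. Plod1 held 1 at 20 bases and Serpinh1 held 1 at 171 bases. P4ha2 held 3 and Pcolce held 1, and no cores overlapped. The stretches of P4ha2 (chr11:54100674-54100923) and Pcolce (chr5:137611405-137611654) lie inside the gene coordinates given below, so the start used for them is one within the gene. Of the 10 genes 5 matched the promoter table, and Lox, Loxl1, Loxl2, Loxl3 and Plod2 did not. At least 1 core is found in 38.6% of 32851 promoters of this length, ACGTG in 16.6% and GCGTG in 28.2%, so these letters are common and a match is a description of the sequence.

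Both prolyl 4-hydroxylase subunits stayed within the limit. P4ha1 (ENSMUSG00000019916, chromosome 10 from 59323296 to 59373304 on GRCm38) encodes the main catalytic subunit of the tetramer. Its FPKM was 46.6 in MICFs against 56.9 in GMTMS-iCMs, with 63.6 for the library labelled GMTMM, from 2759, 2173 and 3058 counts. It was thus 1.22-fold higher in GMTMS-iCMs than in MICFs on the deposited FPKM (95% interval 1.15 to 1.29), whereas quantile normalization gave a log2 difference of -0.23 and library totals a difference of -0.18. The intervals on folds are Clopper-Pearson intervals on the counts and cover counting error only, and the deposited FPKM are scaled by DESeq2 size factors. The direction of P4ha1 therefore depended on the scaling, but every scaling kept it between -0.23 and 0.29. P4ha2 (ENSMUSG00000018906, chromosome 11 from 54100095 to 54131665), the second catalytic subunit, was the least expressed of the 10 genes in MICFs. It had 5.08, 3.28 and 6.27 FPKM for MICFs, then GMTMS-iCMs, then the library labelled GMTMM, and was 1.55-fold lower in GMTMS-iCMs than in MICFs (1.31 to 1.84). Its difference passed the limit only when scaled by library totals, at -1.06.

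The lysyl hydroxylases went apart. Plod1 (ENSMUSG00000019055, chromosome 4 from 147909753 to 147936767), which modifies lysines of the helical part of collagen, had 38.3 FPKM in MICFs against 38.2 in GMTMS-iCMs, with 35.2 for the library labelled GMTMM. On the deposited FPKM its level in GMTMS-iCMs was 99.6% of that in MICFs, and the interval of the fold, 0.946 to 1.05, held 1. Quantile normalization and library totals each gave a log2 difference of -0.48, and over all scalings the difference ran from -0.49 to -0.005. Plod2 (ENSMUSG00000032374, chromosome 9 from 92542223 to 92608428), which modifies the telopeptide lysines that set the type of crosslink in scar tissue, had 17.9 FPKM in MICFs against 3.12 in GMTMS-iCMs, with 23.4 for the library labelled GMTMM. It was 5.76-fold lower in GMTMS-iCMs than in MICFs (4.87 to 6.84). The ratio of Plod1 to Plod2, which does not depend on the scaling of the deposited values, was 2.14 in MICFs against 12.3 in GMTMS-iCMs, with 1.51 for the library labelled GMTMM. That is a 5.73-fold change of the ratio in GMTMS-iCMs (4.82 to 6.82, counting error only). Plod2 shares 7.08% of its 50-base words with Gm38391, which had at most 10 counts in any library.

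Serpinh1 (ENSMUSG00000070436, chromosome 7 from 99345376 to 99353239), which encodes the collagen chaperone also called Hsp47, was the most abundant of the 10 genes in MICFs, at rank 80 among the 13919 expressed genes. Its FPKM was 280.4 in MICFs against 47.7 in GMTMS-iCMs, with 376.2 for the library labelled GMTMM, from 9857, 1082 and 10734 counts. It fell 5.88-fold in GMTMS-iCMs (5.52 to 6.27), to rank 1143. In the library labelled GMTMM its FPKM was 1.34-fold that of MICFs (1.31 to 1.38), but the sign of its log2 difference was negative on the quantile-normalized scale (-0.23) and positive without that step (0.42). P4ha1 and Serpinh1 changed places: the ratio of P4ha1 to Serpinh1 was 0.166 in MICFs, 0.169 in the library labelled GMTMM and 1.19 in GMTMS-iCMs, a 7.18-fold change (6.60 to 7.81). This pair was chosen after its values were seen. Pcolce (ENSMUSG00000029718, chromosome 5 from 137605103 to 137613784), which enhances removal of the C-propeptide by Bmp1, had 62.3 FPKM in MICFs against 17.8 in GMTMS-iCMs, with 103.6 for the library labelled GMTMM. It fell 3.50-fold in GMTMS-iCMs (3.21 to 3.81).

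All 4 lysyl oxidases among the 10 genes fell in GMTMS-iCMs, by unequal amounts. Lox (ENSMUSG00000024529, chromosome 18 from 52516069 to 52529867), the founding enzyme that crosslinks both collagen and elastin, had 967 counts in MICFs against 75 in GMTMS-iCMs, with 1105 for the library labelled GMTMM, or 14.0, 1.68 and 19.7 FPKM. It was 8.32-fold lower in GMTMS-iCMs than in MICFs (6.58 to 10.7). Loxl1 (ENSMUSG00000032334, chromosome 9 from 58287738 to 58313186), known for elastic fibre upkeep, had the highest deposited FPKM of the family in each library, at 70.2, 9.80 and 124.6 in the same order. Its fall in GMTMS-iCMs was 7.17-fold (6.37 to 8.09), an interval that overlapped that of Lox, and on the quantile-normalized scale its difference (-3.16) was larger than that of Lox (-2.55). In GMTMS-iCMs Loxl1 was not separable from Loxl2 by counting error (ratio 1.03, 0.889 to 1.19).

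Loxl2 (ENSMUSG00000034205, chromosome 14 from 69609068 to 69695834), which also acts on the collagen IV network of basement membranes, had 47.2, 9.50 and 91.3 FPKM for MICFs, then GMTMS-iCMs, then the library labelled GMTMM. It fell 4.97-fold in GMTMS-iCMs (4.51 to 5.47). Of its 50-base words, 45.8% occur also in another gene, mostly Gm21451, so reads may have been split between them. Gm21451 had 27, 4 and 37 counts in the same order, so Loxl2 held nearly all of the counts assigned to the pair. If reads that match both genes were dropped, which the sources do not say, Loxl2 is undercounted in every library. Its place among the 10 genes, its share of the family and its ratio to Loxl3 carry this limit. Loxl3 (ENSMUSG00000000693, chromosome 6 from 83034173 to 83052562) fell least of the lysyl oxidases among the 10 genes. It went from 10.6 FPKM in MICFs to 4.87 in GMTMS-iCMs, with 13.3 in the library labelled GMTMM. Its fold was 2.18 (1.86 to 2.56), and its log2 difference of -1.02 lay at the limit and was -0.98 without quantile normalization. Exons of Htra2 on the other strand cover 11.6% of Loxl3 exon bases, and the handling of strand in counting is not given in the sources used here, so its counts are uncertain. The same overlap with other genes was 6.42% for Plod2, 5.70% for Loxl2, 2.93% for Pcolce and 0.628% for Lox, and the remaining 5 genes had none.

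**Figure D2:**
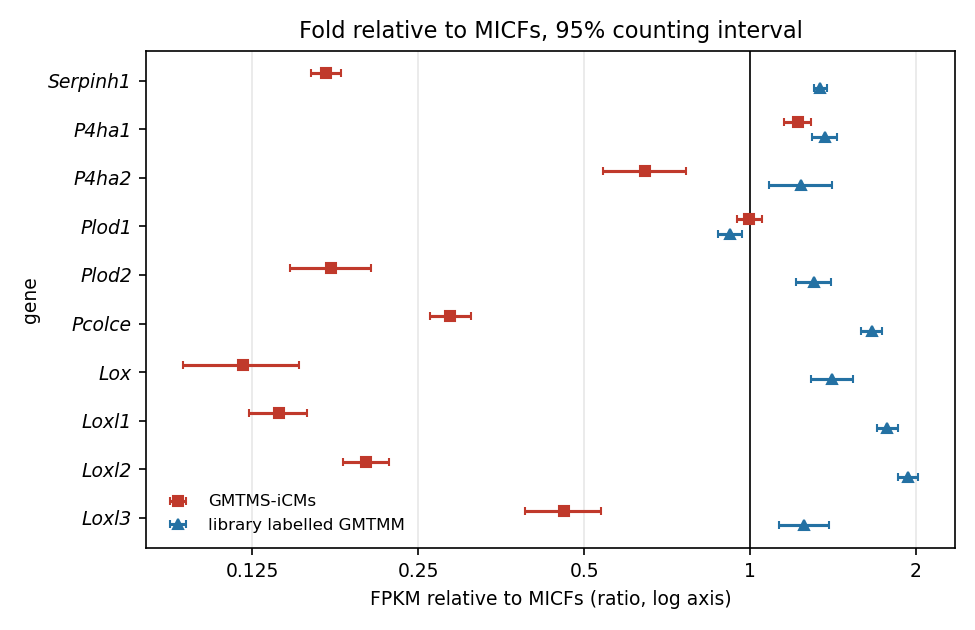
FPKM of each gene relative to MICFs (ratio, log axis) in GMTMS-iCMs (red squares) and the library labelled GMTMM (blue triangles), with 95% Clopper-Pearson intervals on the counts, 1 library each. In GMTMS-iCMs 8 of 10 ratios lie below 1 beyond counting error, from 0.120 for Lox to 0.646 for P4ha2, while in the library labelled GMTMM 9 of 10 lie above 1 and Plod1 lies at 0.919. By this rule 32.7% of the 13919 genes were lower and 36.0% higher in GMTMS-iCMs, and 35.6% were higher and 30.4% lower in the library labelled GMTMM. These ratios are on the deposited scaling, and the quantile-normalized differences of Serpinh1 (-0.23) and P4ha1 (-0.05) in that library were below 0.

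The order of the genes by FPKM was the same at all 10 places in MICFs and the library labelled GMTMM, from Serpinh1, Loxl1 and Pcolce at the top to Loxl3 and P4ha2 at the bottom. In MICFs only Loxl2 and P4ha1 were not separable by counting error (ratio 1.01, 0.963 to 1.06). In GMTMS-iCMs the order was P4ha1, Serpinh1, Plod1, Pcolce, Loxl1, Loxl2, Loxl3, P4ha2, Plod2 and Lox. There, P4ha2 and Plod2 were also not separable (ratio 1.05, 0.847 to 1.31). Lox moved from rank 3059 to rank 10374 among the 13919 genes, whereas P4ha1 moved from rank 793 to rank 944.

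Within the lysyl oxidase family, Loxl4 included, the summed FPKM was 143.8 in MICFs against 27.0 in GMTMS-iCMs, with 253.2 for the library labelled GMTMM. Loxl1 made up 48.8%, 36.2% and 49.2% of it in that order, and Loxl3 7.37%, 17.99% and 5.24%. The ratio of Loxl2 to Loxl3 was 4.45 in MICFs and 1.95 in GMTMS-iCMs, a 2.28-fold fall (1.90 to 2.73), and 6.87 in the library labelled GMTMM. The ratio of Lox to Loxl1 was 0.199 in MICFs and 0.171 in GMTMS-iCMs, and the interval of that change, 0.662 to 1.12, held 1. For the lysyl hydroxylases the summed FPKM was 85.6, 67.2 and 97.9, as Plod1 and the related Plod3 made up most of it in each library. Plod2 made up 20.9% in MICFs against 4.64% in GMTMS-iCMs, with 23.9% for the library labelled GMTMM. For the prolyl 4-hydroxylase alpha subunits the summed FPKM was 54.1, 60.5 and 75.2, of which P4ha1 made up 86.2%, 94.1% and 84.6%. The ratio of P4ha1 to P4ha2 was 9.18 in MICFs and 17.3 in GMTMS-iCMs, a 1.89-fold change (1.58 to 2.26), or 1.22 on quantile-normalized FPKM.

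**Figure D3:**
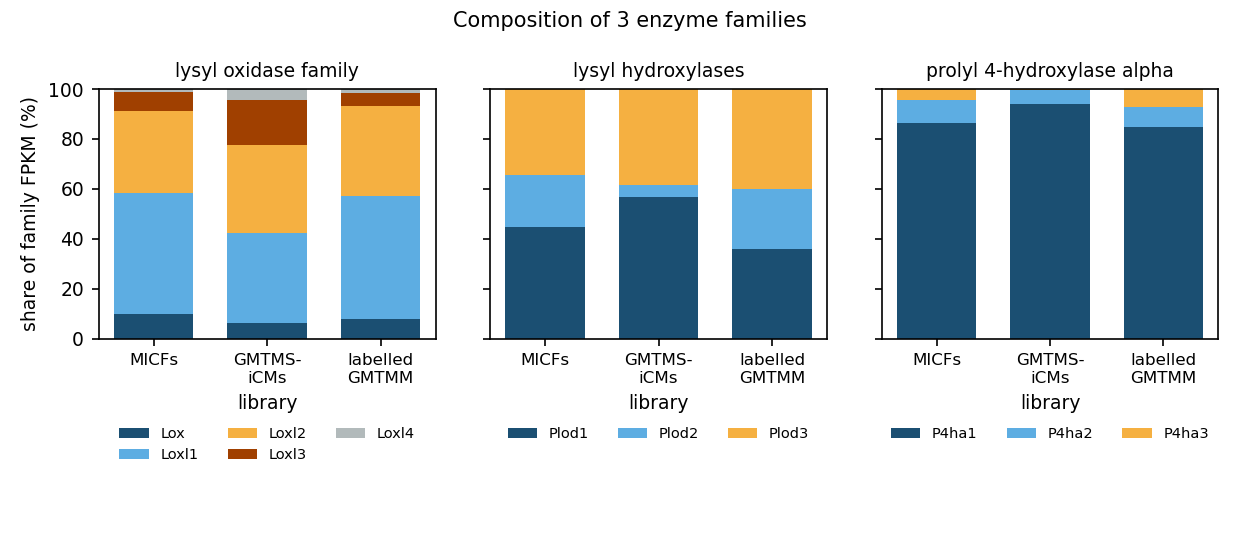
Share of each gene in the summed FPKM of its family (%, stacked bars) for MICFs, then GMTMS-iCMs, then the library labelled GMTMM, 1 library each, for the lysyl oxidases, the lysyl hydroxylases and the prolyl 4-hydroxylase alpha subunits. The Plod2 share is smallest in GMTMS-iCMs (4.64%) and the Loxl3 share is largest there (17.99%).

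The enzymes were next set against their substrate within each library, as a percentage of the summed FPKM of the fibrillar collagen genes Col1a1, Col1a2 and Col3a1. That sum was 1071 in MICFs against 151.5 in GMTMS-iCMs, with 2028 for the library labelled GMTMM. All 6 substrate genes examined, Col1a1, Col1a2, Col3a1, Col5a1, Col5a2 and the elastin gene Eln, fell in GMTMS-iCMs by over 1 relative to MICFs, the median being -3.00. Eln went from 855 counts in MICFs to 21 in GMTMS-iCMs. Of the 13919 genes, 10.7% were lower by over 1 in that comparison. Because the collagen sum itself differed between libraries, the median of all expressed genes changed 7.23-fold relative to collagen in GMTMS-iCMs (13303 genes with a count in both libraries) and 0.541-fold in the library labelled GMTMM (13304 genes). Changes of the enzymes were called against 1, which is proportion to collagen, and these medians show where the typical gene lay.

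Relative to the collagens, Lox and Loxl1 in GMTMS-iCMs were not separable from MICFs by counting error. Loxl1 was 6.56% of the collagen FPKM in MICFs against 6.46% in GMTMS-iCMs, with 6.15% for the library labelled GMTMM. Its change in GMTMS-iCMs was 0.986 (0.875 to 1.11), and that of Lox was 0.849 (0.671 to 1.07). Serpinh1 was at 26.2%, 31.5% and 18.6%, a change of 1.20 in GMTMS-iCMs (1.13 to 1.28), and Plod2 changed by 1.23 (1.04 to 1.45). Each of these changes in GMTMS-iCMs lay below the 7.23-fold change of the median gene. With Col1a1 alone as the substrate the changes were 0.613 for Lox, 0.712 for Loxl1, 0.868 for Serpinh1, 0.887 for Plod2 and 1.03 for Loxl2, so whether these enzymes were near, above or below proportion depended on that choice.

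P4ha1 and Plod1 changed relative to the collagens about as the median gene did. P4ha1 was 4.35% of the collagen FPKM in MICFs against 37.5% in GMTMS-iCMs, with 3.14% for the library labelled GMTMM, an 8.62-fold change in GMTMS-iCMs (8.13 to 9.15). Plod1 was 3.58%, 25.2% and 1.74%, a 7.04-fold change (6.67 to 7.44). P4ha2 changed 4.56-fold, Loxl3 3.24-fold, Pcolce 2.02-fold and Loxl2 1.42-fold, each beyond counting error. In all, 8 of the 10 enzymes were higher and 0 were lower relative to collagen in GMTMS-iCMs beyond counting error, where 92.6% of all genes were higher and 1.95% lower, and the median change of the 10 was 1.72. In the library labelled GMTMM 9 of the 10 were lower and 0 were higher, against 77.3% and 8.93% of all genes, with a median change of 0.715, and Loxl2 was at 1.02 (0.980 to 1.07).

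**Figure D4:**
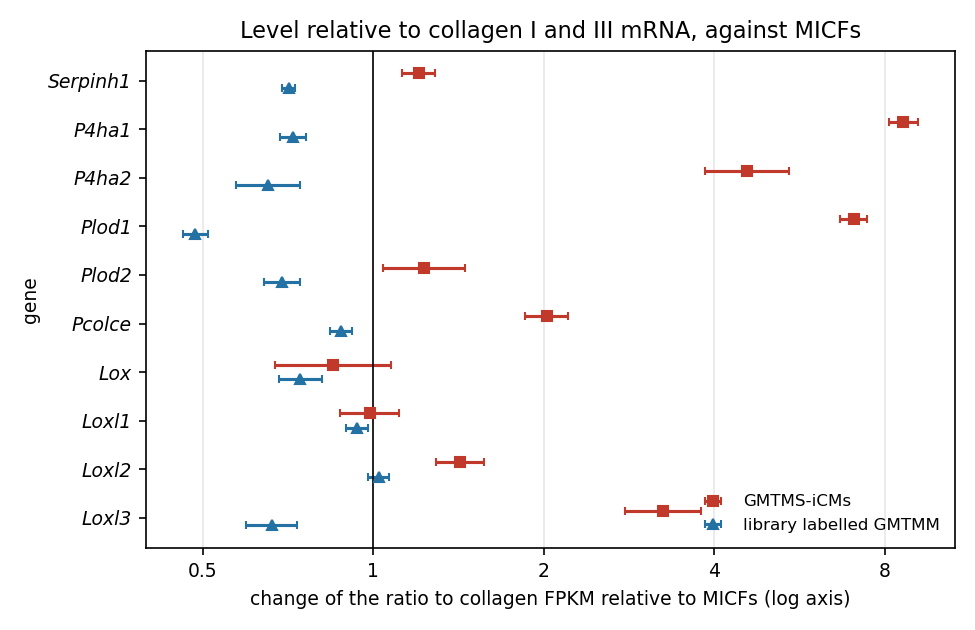
Change of the ratio of each gene to the summed FPKM of Col1a1, Col1a2 and Col3a1 relative to MICFs (log axis) in GMTMS-iCMs (red squares) and the library labelled GMTMM (blue triangles), with 95% intervals for counting error, 1 library each. In GMTMS-iCMs Lox and Loxl1 lie near 1, while Plod1 and P4ha1 lie at 7.04 and 8.62, on either side of the median of all expressed genes (7.23).

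Other genes of the pathway were read as a list of 24, of which 21 had an FPKM of at least 1 in some library. Against MICFs, 9 of the 24 were lower and 1 was higher by over 1 in GMTMS-iCMs, and their median difference was -0.65. Of the 13919 genes, 10.7% were lower and 12.1% higher. For the library labelled GMTMM 2 of the 24 were higher and 0 were lower, with a median of 0.27, near the background of 8.31% higher and 5.09% lower. Under TMM and under DESeq2 scaling 6 were higher, and the share over all genes was not computed there. Of the 6 propeptide proteases of the list 3 were lower by over 1 and 0 were higher. Adamts2, which removes the N-propeptide, went from 40.9 FPKM in MICFs to 6.76 in GMTMS-iCMs and was at 62.9 in the library labelled GMTMM, a difference in GMTMS-iCMs of -2.77. Bmp1, which removes the C-propeptide and also activates Lox, went from 24.6 to 4.83 and was at 47.3 (-2.34). The third was Adamts14 (-1.22), named after its values were seen, while Tll1 (-0.47), Tll2 (0.03) and Adamts3 (0.27) did not pass. Tll1 went from 44 counts (0.394 FPKM) in MICFs to 0 counts in GMTMS-iCMs, and Tll2 had at most 0.249 FPKM in any library. With 1 added to the FPKM, levels this low in MICFs left no room for a fall past the limit.

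Of the 5 genes P3h1 to P3h4 and Crtap, 2 were lower by over 1 in GMTMS-iCMs and 0 were higher, against 10.7% and 12.1% of the 13919 genes. P3h1 (-0.98), P3h2 (-0.33) and P3h4 (-0.21) did not pass. These subgroups of the list were set after the values were seen. P3h3 had 29.9 FPKM in MICFs against 7.45 in GMTMS-iCMs, with 43.2 for the library labelled GMTMM (difference -2.14 in GMTMS-iCMs). Crtap had 65.7, 26.4 and 99.3 FPKM (-1.82). By contrast P4hb, the protein disulfide isomerase that is the partner of P4ha1 and P4ha2 and serves many secreted proteins, had 171.6, 184.8 and 251.8 FPKM (-0.60). Colgalt1, which adds galactose to hydroxylysine, had 52.0, 45.8 and 52.1 FPKM (-0.70). P4hb and Plod3 changed 7.61-fold and 6.23-fold relative to collagen in GMTMS-iCMs.

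Tgm2, the tissue transglutaminase, which crosslinks matrix proteins by another reaction than the lysyl oxidases, was the gene of the list that rose. It had 18.5 FPKM in MICFs against 212.7 in GMTMS-iCMs, with 106.8 for the library labelled GMTMM, from 1225, 9104 and 5748 counts. The differences from MICFs were 3.05 and 2.13. Creb3l1, which encodes a transcription factor of the secretory pathway, was the other gene higher by over 1 in the library labelled GMTMM, at 8.97, 10.0 and 35.4 FPKM, and it was named after its values were seen.

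Markers of other cells moved along with these changes. All 8 fibroblast genes fell by over 1 in GMTMS-iCMs, by a median of -2.81 against MICFs, and took 0.0663% of the counts there against 0.486% in MICFs and 0.841% in the library labelled GMTMM. The 8 endothelial genes were all lower by over 1 as well, with a median of -4.81 and 0.00571%, 0.244% and 0.147% of the counts in GMTMS-iCMs, MICFs and the library labelled GMTMM. The macrophage list took 1.52% of the counts in MICFs against 2.31% in GMTMS-iCMs, with 1.19% for the library labelled GMTMM, with 2 of 8 genes higher and 0 lower by over 1 in GMTMS-iCMs. Every gene of these 3 lists was counted in every library. In GMTMS-iCMs against MICFs, 12.1% of the 13919 genes were higher and 10.7% lower by over 1. The cardiomyocyte list took 0.000666%, 0.293% and 0.107%, and Myh6, Ryr2 and Actn2 were at 0 counts in MICFs. The smooth muscle and pericyte list took 0.124%, 0.107% and 0.200%, with 2 genes higher and 2 lower in GMTMS-iCMs. The part of these shifts in the levels of the 10 enzymes was not tested.

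The genes most like the group were found by their distance from its median profile over the 3 libraries, each gene centred on its own mean, among 5100 protein-coding genes with an FPKM of at least 10 in some library. Among the nearest 5 outside the group were Gpx8, Gpx7, Pdgfra and Ndufa4l2, at distances of 0.04 to 0.06. Gpx7 and Gpx8 encode peroxidases of the endoplasmic reticulum, and Pdgfra encodes a receptor that marks fibroblasts. Gpx8 had 33.9 FPKM in MICFs against 7.91 in GMTMS-iCMs, with 52.7 for the library labelled GMTMM. Pdgfra had 17.7, 3.42 and 26.1 FPKM in the same order. Among the 10 enzymes Pcolce lay nearest to the median profile (0.02) and Plod1 (1.82) and P4ha1 (1.74) lay farthest. The profile is the median of these same 10 genes, so a gene in the middle of the group is near it by construction. With 3 libraries such a likeness rests on 3 values per gene.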

How the data were processed

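RNA-seq counts and FPKM of 54532 genes were used for 3 libraries, 1 per group as given by the sample titles. The column for MICFs carries an abbreviation and was matched because the other columns name the cocktails. Per the labels, the authors used HISAT2 2.0.5 and name the mm9 build, but the gene coordinates in the deposited tables are those of GRCm38, equal to GENCODE M21 for 9 of the 10 genes. The counting tool, its strand setting and its treatment of multi-mapped reads are not given in the sources used here.

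The authors deposited raw counts per gene, without normalization. The deposited FPKM equalled the counts per kilobase of gene length divided by a library size of 14389264 (MICFs), 9287868 (GMTMS-iCMs) or 11680913 (GMTMM-iCMs), which are DESeq2 size factors times the geometric mean of the totals.

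FPKM were quantile-normalized over the 3 libraries, ties averaged, and transformed as log2 (FPKM + 1), as in the study. A gene was called past a difference of 1. Folds divide 1 deposited FPKM by another and carry 95% Clopper-Pearson intervals, and ratios of ratios carry 95% intervals from the log odds ratio, or from propagated count errors against the summed collagens. PCR duplicates cannot be seen in counts, so these intervals cover counting error only. The 10 genes and the lists were chosen with earlier results of these data known. Named genes were the 10 enzymes, of the 24 pathway genes the 4 with the highest mean FPKM and the 4 with the largest absolute difference, the substrates, and the 5 nearest genes, of which 1 is not reported here. Where a symbol had 2 rows, the row with more counts was taken. The steps were tested on simulated data. Alternatives were other scalings (edgeR 4.0.16 TMM with a prior count of 2, DESeq2 1.42.0 size factors, CPM), log2 first, no quantile normalization, a pseudocount of 0.1, a filter at FPKM of 1, limits of 0.5 and 2, Col1a1 as the only substrate, and quantile-normalized ratios. Python 3.11.15, SciPy 1.17.1 and R 4.3.3 were used.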

Additional observations from a re-analysis of the deposited data

Results flagged for a closer look

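Of the 10 enzymes, 6 were lower than MICFs in GMTMS-iCMs by over 1 and above MICFs by any amount in the library labelled GMTMM on the quantile-normalized scale, a pattern that 3.34% of the 13919 expressed genes had. Both signs held for the 6 under every scaling tried, but Loxl3 was at -0.98 in GMTMS-iCMs without quantile normalization. The differences of the library labelled GMTMM from MICFs were small, from 0.08 for Plod2 to 0.47 for Loxl2, and none passed the limit. With library totals Loxl3 was at 0.02 there. The log2 differences of GMTMS-iCMs minus the library labelled GMTMM were -2.78 for Lox, -3.41 for Loxl1, -3.02 for Loxl2, -1.19 for Loxl3, -2.40 for Plod2 and -2.41 for Pcolce. With 1 library per cocktail the difference was not tested, and the factors counted in the library labelled GMTMM are at odds with its label.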

How the results depend on the processing

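No paired analysis was possible because there was a single library per condition. Among 399 values under alternatives, 2 called values changed direction. Called here means a log2 difference past 1, or a ratio beyond counting error. Both were with Col1a1 as the only substrate in GMTMS-iCMs over MICFs: Plod2 at 0.887 and Serpinh1 at 0.868. Differences within the limit of 1 whose sign depended on the scaling were P4ha1 against MICFs in both iCM libraries and Serpinh1 and P4ha2 in the library labelled GMTMM, and Plod1 between the iCM libraries. On the deposited FPKM each of these differed beyond counting error, so counting error does not cover the choice of scaling. The number of enzymes lower past the limit in use was between 6 and 8 under every scaling and limit tried. This range covers GMTMS-iCMs against MICFs and against the library labelled GMTMM. The share over all genes was not computed for the other scalings and limits, so these counts have no background there. Scaling by library totals shifted the median of all expressed genes from -0.04 to -0.37 in GMTMS-iCMs against MICFs and from -0.08 to -0.22 in the library labelled GMTMM.

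The median of the 10 enzymes in GMTMS-iCMs against MICFs (-2.27) was -1.97 without quantile normalization, -2.06 with DESeq2's size factors and -2.51 with library totals. For the library labelled GMTMM relative to MICFs (0.18) the value was 0.41 with TMM, 0.44 with DESeq2's size factors and 0.43 without quantile normalization. Between the iCM libraries (-2.40) it was -2.77 with TMM, -2.72 with DESeq2's size factors and -2.84 with library totals. At a limit of 0.5, 1 enzyme, Plod1, was below MICFs in the library labelled GMTMM. With TMM, DESeq2's size factors or library totals, 2 hypoxia-inducible genes were lower in GMTMS-iCMs than MICFs. Of the other list, 5 pathway genes were higher in the library labelled GMTMM with a pseudocount of 0.1 and 6 with TMM or DESeq2's size factors, as were 2 substrate genes with either of these or without quantile normalization. The share over all genes was not computed for these settings.

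On quantile-normalized FPKM the changes of the ratios in GMTMS-iCMs and the library labelled GMTMM against MICFs were 1.15 and 0.997 for Lox to Loxl1, 0.350 and 1.22 for Loxl2 to Loxl3, 4.37 and 0.626 for Plod1 to Plod2, and 1.22 and 0.801 for P4ha1 to P4ha2. Lox to Loxl1 in GMTMS-iCMs and P4ha1 to P4ha2 in the library labelled GMTMM thereby crossed 1, and the intervals of both had held 1. With Col1a1 as the only substrate the median change relative to collagen was 1.24 and 0.564. The cause of these shifts was not tested beyond the settings themselves.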

Other observations

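Lox, Loxl2, Plod1, Plod2, P4ha1 and P4ha2 are textbook targets of HIF-1, and 16 other such targets were read beside them. In GMTMS-iCMs 1 of the 16 was higher and 1 was lower than in MICFs by over 1, against 12.1% and 10.7% of all expressed genes. The median difference of the 16 was -0.05, near the -0.04 of all expressed genes. The gene that was higher was Slc2a1, the main glucose transporter, at 12.8 FPKM in MICFs against 40.9 in GMTMS-iCMs, with 63.6 for the library labelled GMTMM. Adm, which encodes the vasodilator adrenomedullin, was lower, at 68.5, 8.65 and 69.1 FPKM. For the library labelled GMTMM, 3 of the 16 were higher by over 1 (Slc2a1, Egln3 and Ankrd37) and 0 were lower, against 8.31% and 5.09% of all expressed genes. Among the 6 enzymes, in GMTMS-iCMs against MICFs, Lox, Loxl2 and Plod2 had differences from -2.31 to -2.55, whereas Plod1, P4ha1 and P4ha2 had differences from -0.23 to -0.48. Slc2a1, Adm, Egln3 and Ankrd37 were named after their values were seen.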
